A study of Rattus norvegicus with 6 samples.

Results

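Enzymes and a transporter that are usually read together as targets of the transcription factor NRF2 were followed in rat oral soft tissue. They were chosen by name: Slc7a11, Gclc, Gclm, Txnrd1, Srxn1, Gpx2, Nqo1, Akr1b8, Aldh3a1 and Hmox1, which makes 10 of the 10585 genes that could be tested. The array carried 14 probe sets (groups of short probes that read 1 transcript) named for these 10 genes alone, and 13 of them passed the filter on low signals. Each gene is described by its brightest probe set, taken as the mean of the 6 arrays, and by it all 10 genes lay above the dim level of 5.90 on the log2 scale in both tissues. No member therefore entered the test only through the tissue in which it was brighter.

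The samples were 3 of peri-implant soft tissue and 3 of oral mucosal tissue, each hybridised to its own array. All came from male Sprague Dawley rats, an outbred strain, whose upper first molars had been extracted on both sides at 4 weeks of age. A titanium alloy implant was put into the left socket alone. Tissue was taken 4 weeks later, from around the implant on the left and from the healed extraction site on the right, so the implant and the side of the mouth cannot be told apart. The labels do not say that samples of 1 tissue are different rats, so the p-values cover only sample-to-sample spread, possibly technical. Values are log2 signals as deposited, differences are peri-implant minus oral mucosal, and "passed" means an adjusted p under 0.05 in limma over all 18625 probe sets tested. In such bulk samples fewer cells of a type and less RNA per cell cannot be told apart.

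NRF2, encoded by Nfe2l2, is held in the cytoplasm by KEAP1, which marks it for degradation. When oxidants or electrophiles modify KEAP1, NRF2 accumulates, pairs with small MAF proteins and binds the antioxidant response element, a short DNA motif near its target genes. The targets supply glutathione, reduce thioredoxin and peroxides, detoxify quinones and aldehydes, and break down haem. Several of these genes also answer to other regulators, such as ATF4 for Slc7a11 and the aryl hydrocarbon receptor for Nqo1 and Aldh3a1. In surface epithelia the aldehyde and carbonyl enzymes are often abundant without any added stress.

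The 10 genes did not move as a block. Aldh3a1, Slc7a11, Txnrd1 and Hmox1 were higher in peri-implant soft tissue, by 4.44-fold, 2.81-fold, 1.73-fold and 1.29-fold. Akr1b8 and Gpx2 were lower there, by 2.22-fold and 1.40-fold. Gclc, Gclm, Srxn1 and Nqo1 did not pass. So 6 of 10 members passed, 4 higher and 2 lower, where 26.1% of all 10585 genes passed, 15.2% higher and 11.0% lower. Counted by probe set, 22.5% of those tested passed. The groups did not overlap for the same 6 members, and for 41.9% of all genes. The median difference of the members was -0.08, and over all genes tested it was 0.03. With the mean of each gene's probe sets the median of the members was 0.03. An exact permutation test of a single gene cannot give a p below 0.1 with 3 arrays against 3, and it gave that value for each of the 6.

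**Figure D1:**
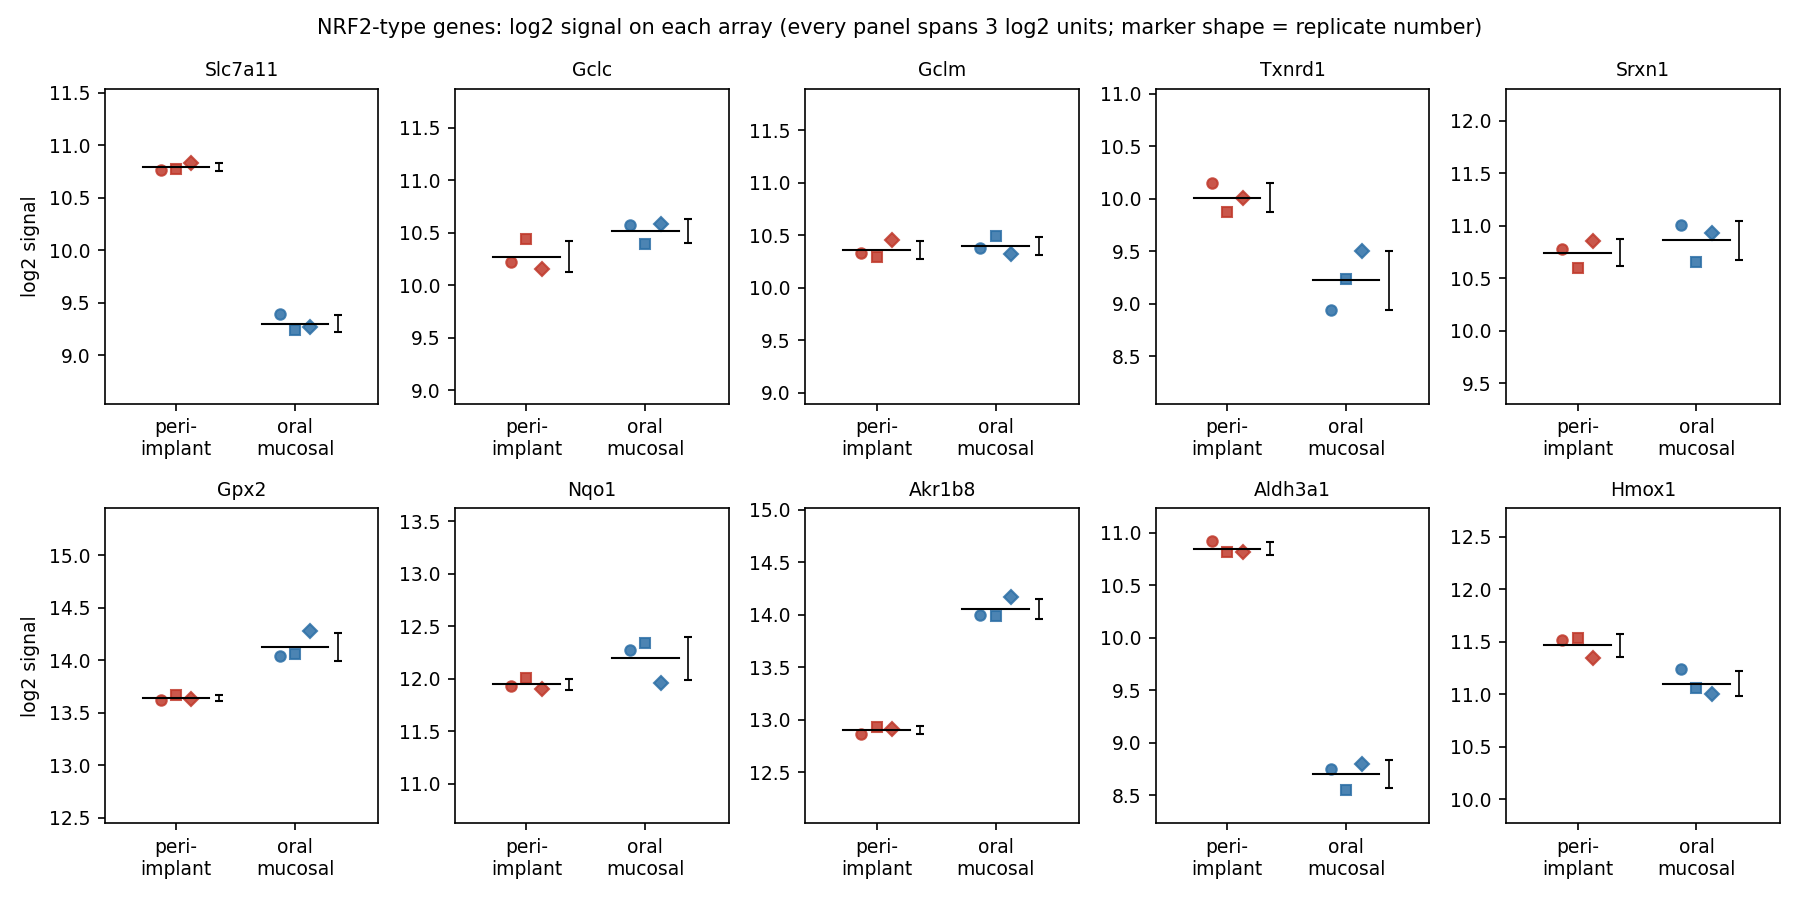
Log2 signal of each of the 10 genes on the 3 peri-implant (red, left in each panel) and the 3 oral mucosal arrays (blue, right). Bars are group means, whiskers are ± 1 SD, and every panel spans 3 log2 units. The red points stand clear above the blue for Slc7a11, Txnrd1, Aldh3a1 and Hmox1 and clear below for Gpx2 and Akr1b8, and the colours overlap for the other 4 genes.

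The stretch before the gene start is shown for the 3 members in which it held the core letters of the antioxidant response element. Promoter windows from 250 bases before to 50 after a gene start were matched by symbol in RefSeq (rat build GRCr8) for 8 of the 10 genes, all but Hmox1 and Aldh3a1, as 9 windows, since Txnrd1 has 2 starts. The core was searched as TGACNNNGC on both strands. It was present in 3 of the 9 windows and in 12.1% of all 33469 windows in the table. The 250 bases before the start are printed on the strand of each gene, with the core in capitals, which read here as its reverse complement. The core begins 172 bases before the start in Gclm (chr2:213031885-213032134, plus strand), 78 bases before it in Txnrd1 (chr7:22755905-22756154, minus strand) and 13 bases before it in Gpx2 (chr6:101230034-101230283, minus strand).
Gclm: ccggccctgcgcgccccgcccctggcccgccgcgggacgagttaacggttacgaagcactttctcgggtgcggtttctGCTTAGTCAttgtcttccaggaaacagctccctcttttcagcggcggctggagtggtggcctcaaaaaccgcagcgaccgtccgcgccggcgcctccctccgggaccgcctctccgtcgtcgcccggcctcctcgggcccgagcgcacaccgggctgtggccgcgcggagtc
Txnrd1: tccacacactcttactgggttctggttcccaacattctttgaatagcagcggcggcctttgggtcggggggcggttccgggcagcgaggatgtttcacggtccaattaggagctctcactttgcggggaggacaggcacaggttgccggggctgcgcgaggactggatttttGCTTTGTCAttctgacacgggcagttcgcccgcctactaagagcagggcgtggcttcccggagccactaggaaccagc
Gpx2: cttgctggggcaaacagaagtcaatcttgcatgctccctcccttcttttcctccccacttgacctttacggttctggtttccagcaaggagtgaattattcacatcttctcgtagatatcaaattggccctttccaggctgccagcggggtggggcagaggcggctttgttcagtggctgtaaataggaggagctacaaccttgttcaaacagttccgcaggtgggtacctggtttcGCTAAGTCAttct
Of these 3 genes Txnrd1 was higher in peri-implant tissue, Gpx2 was lower and Gclm did not pass. Whether the element had a part in any difference was not tested. The core of the xenobiotic response element, GCGTG, which the aryl hydrocarbon receptor binds, was present on either strand in 4 of the 9 windows (Gclc, Nqo1, Srxn1 and the Txnrd1 window shown) and in 29.7% of all windows. The AP-1 element TGANTCA, which shares letters with the antioxidant element, was present in the Srxn1 window and in 7.33% of all. The letters of TGACNNNGC were not found in the windows of Slc7a11, Akr1b8, Nqo1, Gclc and Srxn1, which says nothing of sequence farther away.

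Cystine uptake and glutathione synthesis divided between the transporter and the ligase. Slc7a11 encodes xCT, the subunit that carries cystine into the cell in exchange for glutamate. Its log2 signal was 10.77, 10.77 and 10.84 on the peri-implant arrays, against 9.40, 9.24 and 9.27 on the mucosal arrays. The peri-implant arrays lay within 0.1 of each other and far above every mucosal array. The difference was 1.49 (SE 0.09, 95% interval 1.30 to 1.68, limma adjusted p = 5.74e-08), and over 16 other settings it was 1.46 to 1.54 and always passed.

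Gclc and Gclm encode the catalytic and the modifier subunit of glutamate-cysteine ligase, which makes the first and limiting step of glutathione synthesis. Gclm had a log2 signal of 10.33, 10.29 and 10.46 in peri-implant tissue, against 10.38, 10.50 and 10.32 in mucosa. The groups were interleaved. The difference was -0.04 with a 95% interval of -0.23 to 0.15 (limma adjusted p = 0.786). Gclc had 10.22, 10.44 and 10.15 in peri-implant tissue, against 10.58, 10.39 and 10.59 in mucosa. Peri-implant array 2 lay above mucosal array 2, and otherwise the peri-implant arrays were lower. The difference was -0.25 (95% interval -0.46 to -0.04, limma adjusted p = 0.0897), and it passed without peri-implant array 2 (-0.33, limma adjusted p = 0.0488) and without mucosal array 2 (-0.31, limma adjusted p = 0.0457). The other probe set of Gclc, the dimmer, pointed the other way, at 8.62 ± 0.12 in peri-implant tissue and 8.41 ± 0.20 in mucosa (SD, n = 3 each; difference 0.21, limma adjusted p = 0.374), and also overlapped. Neither probe set of Gclc passed, and their mean differed by -0.02.

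**Figure D2:**
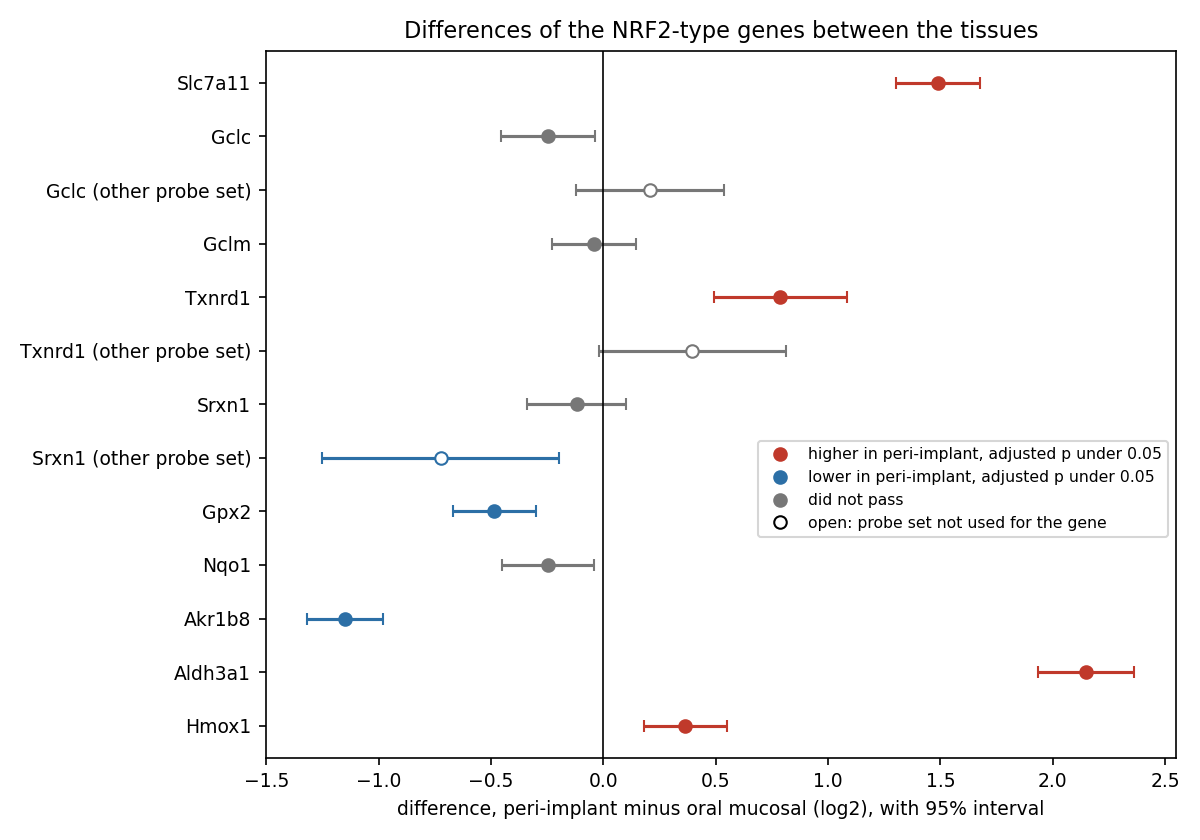
Difference of each member between the tissues on the log2 scale, peri-implant minus oral mucosal, with its 95% interval from limma. Filled points are the probe sets used and open points the other tested probe sets of the same gene. The differences run from -1.15 for Akr1b8 to 2.15 for Aldh3a1, and the 2 points of Gclc lie on either side of 0.

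Of the enzymes that reduce thiols and peroxides, thioredoxin reductase was higher, glutathione peroxidase 2 was lower and sulfiredoxin did not pass. Txnrd1 encodes the cytosolic thioredoxin reductase, which keeps thioredoxin in its reduced form with NADPH. Its log2 signal was 10.16, 9.88 and 10.01 on the peri-implant arrays, against 8.94, 9.24 and 9.50 on the mucosal arrays. The SD was 0.14 in peri-implant tissue and 0.28 in mucosa, and the highest mucosal array stayed below the lowest peri-implant array. The difference was 0.79 (SE 0.14, limma adjusted p = 9.49e-04) and passed when any single array was left out, at 0.64 to 0.93. The other probe set had 8.39 ± 0.28 in peri-implant tissue and 7.99 ± 0.24 in mucosa (SD, n = 3 each), a difference of 0.40 in the same direction that did not pass (limma adjusted p = 0.17).

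Gpx2 encodes a glutathione peroxidase of epithelial cells, best known from the gut. It had a log2 signal of 13.62, 13.67 and 13.63 in peri-implant tissue, against 14.04, 14.06 and 14.28 in mucosa. All peri-implant arrays were lower, and they were closer together than the mucosal arrays. The difference was -0.49 (SE 0.09, limma adjusted p = 0.00103), and it was smallest under quantile normalisation, at -0.38, where it still passed. Gpx2 and Akr1b8 were the brightest members, and at their nearest lay 2.20 and 2.24 log2 units below the highest signal of an array.

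Srxn1 encodes sulfiredoxin, which restores over-oxidised peroxiredoxins. Its brightest probe set had 10.78, 10.60 and 10.85 in peri-implant tissue, against 11.01, 10.65 and 10.93 in mucosa. The arrays overlapped, and the difference of -0.12 (95% interval -0.34 to 0.10) did not pass (limma adjusted p = 0.46). The second probe set was lower in peri-implant tissue, at 7.00, 6.59 and 6.78 against 7.62, 7.31 and 7.61 in mucosa, with no overlap and a difference of -0.72 that passed narrowly (limma adjusted p = 0.0495). The third was dim, at 3.19 ± 1.73 in peri-implant tissue and 2.13 ± 0.76 in mucosa (SD, n = 3 each), and entered no test in the main comparison. With the mean of its probe sets Srxn1 differed by 0.07 (limma adjusted p = 0.91).

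**Figure D3:**
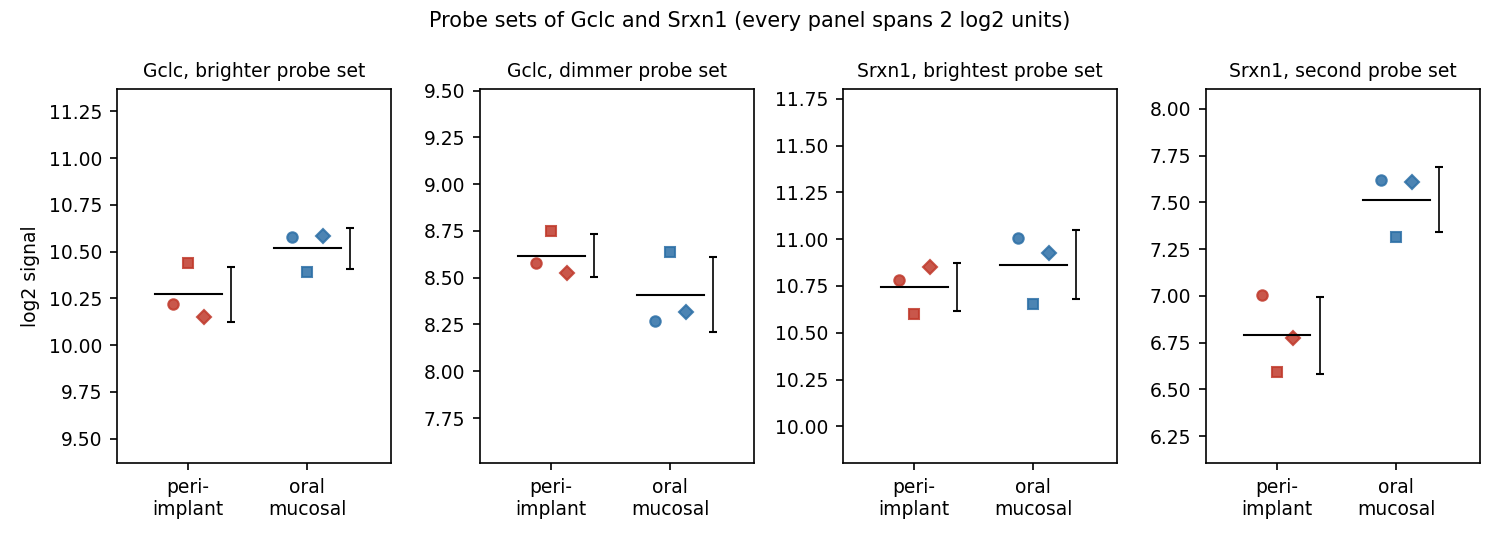
Log2 signal per array of the 2 probe sets of Gclc and of the brighter 2 of the 3 probe sets of Srxn1, peri-implant in red on the left and oral mucosal in blue on the right, with means (bars) and ± 1 SD (whiskers). Each panel spans 2 log2 units. The Gclc probe sets overlap between the tissues and lean opposite ways, and of the Srxn1 probe sets the second separates the tissues while the brightest does not.

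The detoxifying enzymes gave both the largest rise and the largest fall among the members. Aldh3a1 encodes an aldehyde dehydrogenase that oxidises products of lipid peroxidation and is known as an abundant protein of the corneal epithelium. Its log2 signal was 10.92, 10.82 and 10.82 in peri-implant tissue, against 8.75, 8.55 and 8.80 in mucosa. Every peri-implant array lay more than 2 log2 units above every mucosal array. The difference was 2.15 (SE 0.10, 95% interval 1.94 to 2.36, limma adjusted p = 6.19e-09), rank 137 among the rises of the 10585 genes, and 2.07 to 2.20 over 16 other settings.

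Akr1b8 encodes an aldo-keto reductase that turns aldehydes into alcohols. It had 12.87, 12.94 and 12.91 in peri-implant tissue, against 14.00, 13.99 and 14.17 in mucosa. Every peri-implant array was about 1 log2 unit below the lowest mucosal array. The difference was -1.15 (SE 0.08, 95% interval -1.32 to -0.98, limma adjusted p = 2.26e-07), rank 192 among the falls, and -1.18 to -1.04 over 16 other settings. Akr1b1, the related aldose reductase, differed by -0.09 and did not pass. Akr1b7 and Akr1b10, other relatives, lay under the filter on low signals. Whether probes of one aldo-keto reductase also bind transcripts of another was not tested.

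Nqo1 encodes a quinone reductase and is often used on its own as a readout of NRF2. It had 11.93, 12.01 and 11.91 in peri-implant tissue, against 12.28, 12.34 and 11.96 in mucosa. Mucosal array 3 lay among the peri-implant arrays and the other mucosal arrays lay above them. The difference was -0.25 (95% interval -0.45 to -0.04, limma adjusted p = 0.0829). Without mucosal array 3 it was -0.36 and passed (limma adjusted p = 0.00402), and it also passed with array weights (-0.25, limma adjusted p = 0.0388).

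Hmox1 encodes haem oxygenase-1, which opens the haem ring to biliverdin, iron and carbon monoxide, and macrophages express it strongly. Its log2 signal was 11.52, 11.54 and 11.34 in peri-implant tissue, against 11.24, 11.06 and 11.01 in mucosa. The lowest peri-implant array stood just above the highest mucosal array. The difference of 0.37 (SE 0.09, limma adjusted p = 0.00746) was the smallest of those that passed, and without the variance trend it did not pass (limma adjusted p = 0.0791). Macrophage markers moved with it: 11 of 12 tested markers were higher, among them Cd68 by 0.93 and Mpeg1 by 1.69, and 0 were lower. Among the 11, Adgre1 had a mucosal mean under the filter. With the mean of its probe sets Mpeg1 differed by 0.24 and did not pass. The macrophage markers' summed signal was 14.65 to 14.74 on the peri-implant arrays and 13.44 to 13.54 on the mucosal arrays (log2 scale). No marker of that list stood at 0, and Cd163, the haemoglobin scavenger receptor, was dim in both tissues. The part of these cells in the result for Hmox1 was not tested.

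The other cell types that the samples could hold also differed. Keratinocyte markers, which mark the epithelium of oral mucosa, were bright in both tissues. Their summed signal was 18.81 to 19.19 in peri-implant tissue and 18.82 to 19.27 in mucosa (log2 scale). Some of them lay close to the highest signal of an array. On peri-implant array 2 Krt10 had 16.02 and Krt13 15.89, against a highest signal of 16.17. On mucosal array 1 they had 16.03 and 15.82, against 16.24. Whether the sum could show a difference in keratinocytes at such levels was not tested. Of the 15 keratinocyte markers tested, 5 were higher and 5 lower. The 5 lower were Dsg1 at -0.63, Krt5 at -0.50, Perp at -0.47, Jup at -0.47 and Pkp1 at -0.39. Krt15, a keratin of basal cells, was higher by 3.65 and Krt4, a keratin of non-keratinised mucosa, by 3.12, more than any member. Of the 9 neutrophil markers on the array, 3 were dim in both tissues. Among the 6 tested, 5 passed as higher, and the receptor Cxcr2 differed by -0.10 without passing (limma adjusted p = 0.762). S100a8 and S100a9, among the 5, were bright in both tissues, and whether their signal came from neutrophils was not tested. Fibroblast markers mostly fell, with 8 of 11 passing as lower and 1 as higher. For endothelial markers, 1 of 8 passed as higher and 0 as lower. That 1, Kdr, was higher by 0.70, but did not pass without any single peri-implant array, without mucosal array 2 or 3, or with averaged probe sets (0.14, limma adjusted p = 0.87). Erythrocyte markers were higher in 3 of 4 and lower in 0, calls that were lost for all 3 without the variance trend. Of 6 tested markers of secretory epithelium 3 were higher and 1 lower. Among the 3, Cyp2f4 had a mucosal mean under the filter, so it had to differ to be tested and is no support for that count. On the array 8 of the 14 secretory markers were dim in both tissues, and Oprpn stood at 0 on at least 1 array. Their part in the members' differences was not tested. Each array had a median log2 signal of 6.62 to 6.78, and arrays of 1 tissue correlated at 0.965 to 0.981 over the tested probe sets, against 0.931 to 0.945 between tissues.

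Among 10 tested regulators of the pathway, the gene of NRF2 itself passed. Nfe2l2 was higher, at 12.34, 12.38 and 12.30 in peri-implant tissue against 11.75, 11.75 and 11.61 in mucosa. The groups stood well apart, with a difference of 0.64 (SE 0.07, limma adjusted p = 2.56e-05). The other 9 of 10 tested regulators did not pass. Among them Keap1, the NRF2 inhibitor, had 9.32, 9.19 and 9.51 in peri-implant tissue, against 9.46, 8.97 and 9.29 in mucosa (limma adjusted p = 0.658). The difference for Keap1, 0.10, became -0.04 with averaged probe sets and -0.03 without mucosal array 2. Under quantile normalisation and with array weights 2 regulators passed. The median of the regulators was -0.07, and it turned to 0.0073 under quantile normalisation and was -0.04 without mucosal array 1. These are transcript levels, and NRF2 is controlled largely through the stability of its protein, which arrays do not measure.

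Beyond the 10 members, 126 genes on 9 lists of redox and stress biology were tested. Among them 36 were higher and 15 lower, and 75 did not pass. That is 40.5% passing, where 26.1% of all genes passed. The median difference over these genes was 0.10, against 0.03 over all genes. Of the genes counted as higher, 3 (Cbs, Sod3 and Hp) had a mucosal mean under the filter of 5.68 and so had to differ to be tested, and they are no support for the counts of their lists.

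In the further list of glutathione synthesis and recycling 2 of 14 genes were higher, 2 lower and 10 did not pass. Ggt1 encodes γ-glutamyltransferase, the surface enzyme that cleaves extracellular glutathione and returns its cysteine. It had 10.72, 10.87 and 10.62 in peri-implant tissue, against 7.87, 8.04 and 8.18 in mucosa. Every peri-implant array was more than 2 log2 units above every mucosal array, and the difference was 2.71 (SE 0.12, limma adjusted p = 3.29e-09). Cth, which makes cysteine from cystathionine, fell by 1.20, and Chac1, which breaks glutathione down inside the cell, fell by 0.43. Cbs, the enzyme before Cth, had a mean of 7.65 in peri-implant tissue and 4.81 in mucosa, where it was dim, so it entered the test only through the peri-implant arrays. With values under 5.90 raised to that level, every mucosal array stood at 5.90 and Cbs was higher by 1.76. That setting is no further test, since the mucosal arrays then had no spread. Over the other settings Cbs was higher by up to 3.37. Slc3a2, the heavy chain that partners xCT, had 11.88, 11.87 and 11.95 in peri-implant tissue, against 11.83, 11.71 and 11.86 in mucosa, and did not pass (difference 0.10, limma adjusted p = 0.366). Gss, glutathione synthetase, differed by -0.39 and did not pass, except without peri-implant array 1 (-0.54, limma adjusted p = 0.0382). The median of the list was 0.03, and -0.06 without mucosal array 1 or mucosal array 3.

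Among peroxidases and the thioredoxin system 7 of 22 genes were higher, 2 lower and 13 did not pass, with a median of 0.12 (0.0569 with averaged probe sets). Both genes that were lower were glutathione peroxidases, as was Gpx2. Gpx1, the widespread cytosolic form, fell by 1.46 (SE 0.13), with 14.11, 14.13 and 14.29 in peri-implant tissue against 15.32, 15.81 and 15.79 in mucosa. Gpx3, the secreted form, fell by 1.12 (SE 0.11). Gpx4, which protects membrane lipids, differed by 0.10, and thioredoxin, Txn1, by -0.16 (0.02 under quantile normalisation), and neither passed. Txn1 lay close to the highest signal of an array. It had 15.84 against a highest signal of 16.17 on peri-implant array 2, and 16.31 against 16.81 on peri-implant array 3. On mucosal array 1 it had 15.86 against 16.24. Whether a difference of Txn1 could show at such levels was not tested. Mitochondrial superoxide dismutase Sod2, a gene that inflammatory cytokines induce, was higher by 1.94 (SE 0.08), and Txnip, which binds and inhibits thioredoxin, by 1.30 (SE 0.10).

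Of the glutathione transferases and conjugating enzymes 8 of 22 passed as higher and 2 as lower, and 12 missed the threshold. The list's median was 0.17, and 0.26 both without mucosal array 3 and under quantile normalisation. Gstm2 was higher by 1.56 (SE 0.07, limma adjusted p = 3.31e-09), and its profile over the 6 arrays was among the nearest to that of Slc7a11. The microsomal transferases went both ways, with Mgst2 higher by 1.02 and Mgst1 by 0.59, while Mgst3 fell by 1.00. Transferases of one class are close in sequence, and cross-hybridisation between them was not tested. Among other enzymes of aldehydes and carbonyls 4 of 18 were higher and 2 lower. Aldh7a1 was higher by 0.85 and Aldh1l1, which oxidises formyl-tetrahydrofolate, by 1.45. Aldh3a2, the relative of Aldh3a1 that oxidises fatty aldehydes, was higher by 0.50, without passing when peri-implant array 2 was left out or without the variance trend. The reductases Ptgr1 and Cbr3 fell by 0.62 and 0.45, while Akr7a2, an aldo-keto reductase like Akr1b8, was higher by 0.55 (SE 0.10, limma adjusted p = 0.00137).

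**Figure D4:**
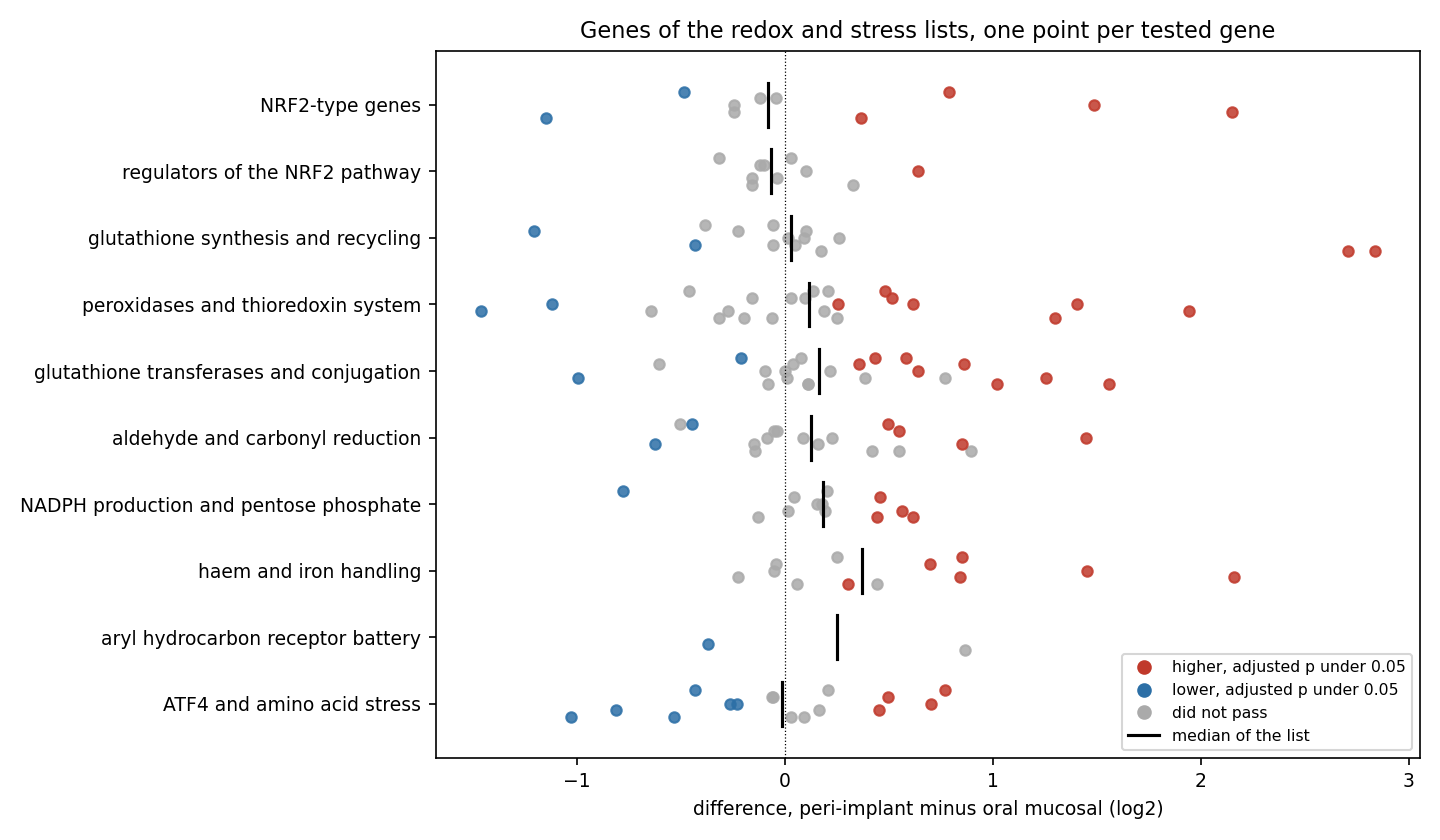
Difference between the tissues (log2, peri-implant minus oral mucosal) of every tested gene of the 10 members and of the 9 lists, 1 point per gene, with list medians as black bars. Red points passed as higher, blue as lower, and grey did not pass. Medians of the lists run from -0.07 for the regulators (0.0073 under quantile normalisation) to 0.37 for haem and iron, and single genes lie far out on either side, such as Ggt1 at 2.71 and Gpx1 at -1.46.

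For haem and iron, 6 of 12 genes, Hp included, passed as higher and 0 as lower. The list's median was 0.37 (0.28 to 0.48 over 16 other settings). Blvra and Blvrb, the biliverdin reductases that act after haem oxygenase, were higher by 1.45 (SE 0.24) and 0.70 (SE 0.13). The transferrin receptor Tfrc was higher by 0.84 and ferrochelatase Fech, the last enzyme of haem synthesis, by 0.85. Haptoglobin, Hp, had a mean of 6.81 in peri-implant tissue and 4.65 in mucosa, and likewise entered the test only through the peri-implant arrays. With values under 5.90 raised to that level, every mucosal array stood at 5.90 and Hp was higher by 0.92. That setting is no further test, since the mucosal arrays then had no spread. Hp was tested in 12 of the 16 other settings. Erythrocyte markers were higher beside these genes, as given above, and their part was not tested.

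Of 12 enzymes that supply NADPH 4 passed as higher and 1 as lower. Taldo1, transaldolase of the pentose phosphate pathway, was higher by 0.44 (SE 0.08). Nnt, the mitochondrial transhydrogenase, was higher by 0.56 and Mthfd2, of mitochondrial folate metabolism, fell by 0.78, and both missed the threshold without peri-implant array 1 or 3. Mthfd2 also missed it without peri-implant array 2, without mucosal array 2 (-0.55, limma adjusted p = 0.134) and without the variance trend. Idh1 was higher by 0.62, or by 0.27 without passing when its probe sets were averaged (limma adjusted p = 0.361). The count of 5 passing genes was 2 without peri-implant array 1 or 3, and 3 without peri-implant array 2, without mucosal array 2, without the variance trend or with averaged probe sets.

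The genes of the other regulators named above were read beside the members they share. Of 16 tested genes of ATF4 and amino acid stress 4 were higher, 6 lower and 6 did not pass, with a median of -0.01 (-0.06 to 0.04 over 16 other settings). The 10 that passed were 6 without peri-implant array 3 and 6 without mucosal array 3. Slc38a2, a neutral amino acid transporter, fell by 0.81 (SE 0.07), and Vldlr, a lipoprotein receptor, by 1.03, while Psat1 of serine synthesis was higher by 0.50. The transcript of Atf4 itself was lower by 0.26 (SE 0.08, limma adjusted p = 0.036). That call was not followed over the other settings, and the arrays do not measure the ATF4 protein. In the aryl hydrocarbon receptor list only Cyp1b1 and Tiparp of 7 genes could be tested. Cyp1b1, a cytochrome P450, had 6.64, 6.63 and 6.87 in peri-implant tissue, against 6.51, 5.50 and 5.53 in mucosa, where it was dim. The groups did not overlap, and the difference of 0.87 (limma adjusted p = 0.117) passed only without mucosal array 1 (1.20, limma adjusted p = 0.0425). Tiparp, an ADP-ribosyltransferase that limits the receptor, fell by 0.37 (limma adjusted p = 0.0172). Tiparp did not pass without peri-implant array 1, peri-implant array 2 or mucosal array 1, or without the variance trend. Cyp1a1, the standard readout of that receptor, lay under the filter.

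For the 3 members with the largest differences, the genes with the nearest profile over the 6 arrays were found by Euclidean distance between gene-centred log2 values. Nearest to Aldh3a1 were Elf3 (an epithelial transcription factor), Slfn4 and LOC100910973, at distances of 0.18, 0.19 and 0.20. Nearest to Slc7a11 were Ifitm3 (an interferon-induced membrane protein), Ctsd (cathepsin D) and Gstm2, at 0.09, 0.10 and 0.14. Nearest to Akr1b8 were Slurp1 (a secreted protein of keratinocytes), Aqp9 (a water and glycerol channel) and Lamb3 (a laminin chain), at 0.09, 0.10 and 0.10. With 6 arrays in 2 groups, a near profile says mainly that the genes differ between the tissues by a like amount.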

How the data were processed

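Total RNA of 3 peri-implant and 3 oral mucosal samples was amplified, labelled with biotin and hybridised to Affymetrix arrays, per the labels' protocols. The deposited values are log2 signals per probe set, 1 column per array, and their 2% trimmed linear mean was 500.0 on every array. How probes were summarised, and with which software, is not given in the sources used here. Of 31099 probe sets, 57 controls were left out. Probe sets with a mean above the 40th percentile (log2 5.68) were tested, 18625 in all, with limma 3.58.1 (lmFit, eBayes with a variance trend) in R 4.3.3 and Benjamini-Hochberg adjustment over all of them. Levels under 5.90 are called dim. A gene took its brightest probe set by mean signal, among the 20826 probe sets with 1 gene symbol, and 436 with several were not named. Of 245 list entries, 222 matched the array. Named were the 10 members, in each of the 9 lists up to 4 genes past the threshold with the smallest p and any at least 4-fold apart, and the nearest profiles. In the marker lists only some such genes were given with values. S100a9, Csf3r, Aif1, Scgb1a1, Lpo and Cyp2f4 were also at least 4-fold higher there, though Aif1 did not pass with averaged probe sets. Keap1, Slc3a2, Gss, Gpx4, Txn1, Aldh3a2, Akr1b1, Cd68, Akr7a2, Cyp1b1, Sod3, Adgre1, Cxcr2, Krt10, Krt13 and Atf4 were named after their values were seen. So were Krt5, Perp, Jup and Pkp1. Akr1b7, Akr1b10, Cyp1a1, Cd163 and Oprpn were also named outside this rule. The members and lists were chosen with earlier results of these data known. Figures were drawn with matplotlib 3.10.9. The linear model was tested on simulated data. Alternatives covered the filter, scaling, variance model, choice of probe set, array weights, replicate numbers as a block and leaving out each array. The number of arrays limits the precision.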

Additional observations from a re-analysis of the deposited data

How the results depend on the processing

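Slc7a11, Aldh3a1, Akr1b8, Gpx2 and Txnrd1 kept their direction and their call under all 16 alternatives, and 5 to 7 members passed in each. Hmox1 did not pass without the variance trend (0.37, limma adjusted p = 0.0791). Leaving out 1 array gave -0.33 to -0.19 for Gclc, -0.36 to -0.17 for Nqo1 and -0.0906 to 0.0077 for Gclm, which turned positive without mucosal array 2. Nqo1 passed with array weights (-0.25, limma adjusted p = 0.0388). With other probe sets Gclc was 0.21, Txnrd1 0.40 (limma adjusted p = 0.17) and Srxn1 -0.72 and 1.06. With averaged probe sets Srxn1 was 0.0719 and the members' median 0.0266. Keap1 turned to -0.0448 with averaged probe sets and to -0.0321 without mucosal array 2, and Txn1 to 0.0222 under quantile normalisation. The causes were not tested. The count of probe sets changed between tissues was 2864 to 4696 over the alternatives and 4076 with the replicate numbers as a block, under which the same 6 members passed. Same-numbered arrays had correlated deviations of 0.013, -0.0789 and 0.0272. No pairing was detectable in them, and the labels do not say whether equal numbers mark 1 rat. A pseudocount was not varied, since values were deposited on the log2 scale. With 3 arrays a group, small differences of the members could not be resolved.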
